A study of Mus musculus with 4 samples.

Results

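This report describes 10 genes for magnesium transporters that sit in the plasma membrane, endosome, Golgi and mitochondrion, in mouse kidney tubules from animals on a low or a high magnesium diet. The members were Nipa1, Nipa2, Nipal1, Nipal2, Nipal3, Mrs2, Magt1, Tusc3, Mmgt1 and Mmgt2, and every array probe annotated to one of these symbols was taken. All 10 genes were measured, by 15 of the 39429 probes tested, out of 21713 gene symbols on the array. The gene symbols, not measured values, chose the members, though the list was drawn up with earlier results of these data known.

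Magnesium enters and leaves compartments of the cell through several unrelated membrane protein families. NIPA1 and NIPA2 move magnesium at the plasma membrane and early endosome, and NIPAL1 to NIPAL3 are their relatives. MRS2 is the magnesium channel of the mitochondrial inner membrane, while MAGT1 and its paralogue TUSC3 are linked to magnesium uptake and also serve as oxidoreductase subunits of the oligosaccharyltransferase, the enzyme that attaches N-glycans to new proteins. MMGT1 is a subunit of the ER membrane complex, which inserts proteins into the membrane, and has also been described, with MMGT2, as a magnesium transporter of Golgi and early endosomes. Several of these proteins were first described as magnesium transporters after their transcripts were found to rise in cultured mouse distal convoluted tubule cells kept in low magnesium.

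The mice were PV-eGFP transgenic animals of the B6D2F2 background, whose eGFP reporter, under the parvalbumin promoter, was used for sorting, and were 6 to 8 weeks old at tubule isolation. Both groups carried the transgene. The low group ate 0.02% and the high group 0.48% magnesium by weight for 15 days, and each RNA sample was drawn from a pool of 4000 sorted tubule fragments. There were 8 RNA samples on 4 arrays read in 2 colours, with a low-diet and a high-diet littermate sample on each array, so the pair is the unit of replication. Pair names join the sample codes, in which L stands for low and H for high. H1/L1 and H7/L7 had the low-diet sample in Cy5, and H3/L2 and H8/L8 had it in Cy3. How many mice gave a sample is not stated, so p-values refer to these 4 pairs. Because the limma fit holds a dye term, its p-values rest on the spread between pairs of like dye orientation. That spread was moderated by the spread seen over all probes. Selection rested on the parvalbumin promoter, so it was aimed at fragments in which that promoter is active. How completely other fragments were left out was not tested.

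Markers of the distal convoluted tubule were above background in every sample for 8 of 8 genes, Slc12a3 among them. So were 16084 of all 21713 genes by their brightest probe. The other segments' markers were not absent: 10 of 10 proximal tubule markers and 6 of 6 thick ascending limb markers were also above background in every sample. The summed proximal tubule level ranged from 2800 to 3570 intensity units in low-diet samples and from 3390 to 8080 in high-diet samples, and was lower in the low-diet sample of each pair. The summed thick ascending limb level was 69200 to 93200 units in low-diet and 28200 to 50400 in high-diet samples, and that of the distal convoluted tubule 46700 to 52200 and 18100 to 26100, both without overlap. These sums include Umod and Pvalb, which also count among the other magnesium genes. The thick ascending limb sum was mostly the signal of Umod and Kcnj1. Of the 8 distal convoluted tubule markers, 4 rose at an adjusted p under 0.05 in limma (Pvalb, Calb1, Trpm6 and Wnk1), against 4.88% of all genes. The others did not, with log2 ratios of low over high diet of 0.13 for Slc12a3, -0.02 for Slc8a1, -0.18 for Klhl3 and -0.17 for Stk39. Between 65.5% and 97.4% of probes were above background in low-diet samples and between 85.1% and 96.2% in high-diet samples, and on each array the Cy5 sample had the higher share. The number of arrays limits the precision.

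All ratios are log2 of low over high diet, so values above 0 mean more signal in low-diet tubules. Of the 15 member probes, 13 were above background in both diets on all 4 arrays, and 0 had a saturated spot. The other 2, the Nipal1 probe and the dimmer Nipal2 probe, were above background in 3 of 4 low-diet samples and 4 of 4 high-diet samples. By the brightest probe, 9 of the 10 members and 16084 of all 21713 genes were above background in every sample. Nipa2, Nipal2 and Magt1 had 2 probes each and Nipal3 had 3. Probes are numbered from the brightest, and the brightest stands for the gene. The levels below are log2 intensities of each channel, after normalization of the ratios within arrays and of mean brightness between arrays. They are compared between samples for 1 probe, not between probes.

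Across the diets, Mmgt2 and Nipa2 rose and no member fell. The Mmgt2 ratio was 0.32 ± 0.11 (SD, n = 4; 1.24-fold higher; adjusted p = 0.0284) and that of Nipa2, by its brightest probe, was 0.16 ± 0.17 (SD, n = 4; 1.12-fold higher; adjusted p = 0.0473). Mrs2 had the most negative ratio, -0.35 ± 0.25 (SD, n = 4; adjusted p = 0.125), and did not pass. Of all genes by their brightest probe, 7.82% passed (4.88% higher and 2.95% lower), against 2 of these 10, both higher. Of all probes, 5.82% passed (3.48% higher and 2.35% lower), against 2 of 15, both higher. With so few members the counts are descriptions only. The median log2 ratio over the 10 genes was 2.0e-05, against 0.0017 over all genes, so the members did not lie to 1 side as a list. At an unadjusted p under 0.05 the fit held 4 member probes, those of Mmgt2 and Mrs2 and both of Nipa2, against 21.5% of all probes. Adjusted p-values are from limma, two-sided, with the Benjamini-Hochberg method applied to all 39429 probes. In these pooled fragments, fewer cells of a type and less RNA per cell cannot be told apart.

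**Figure D1:**
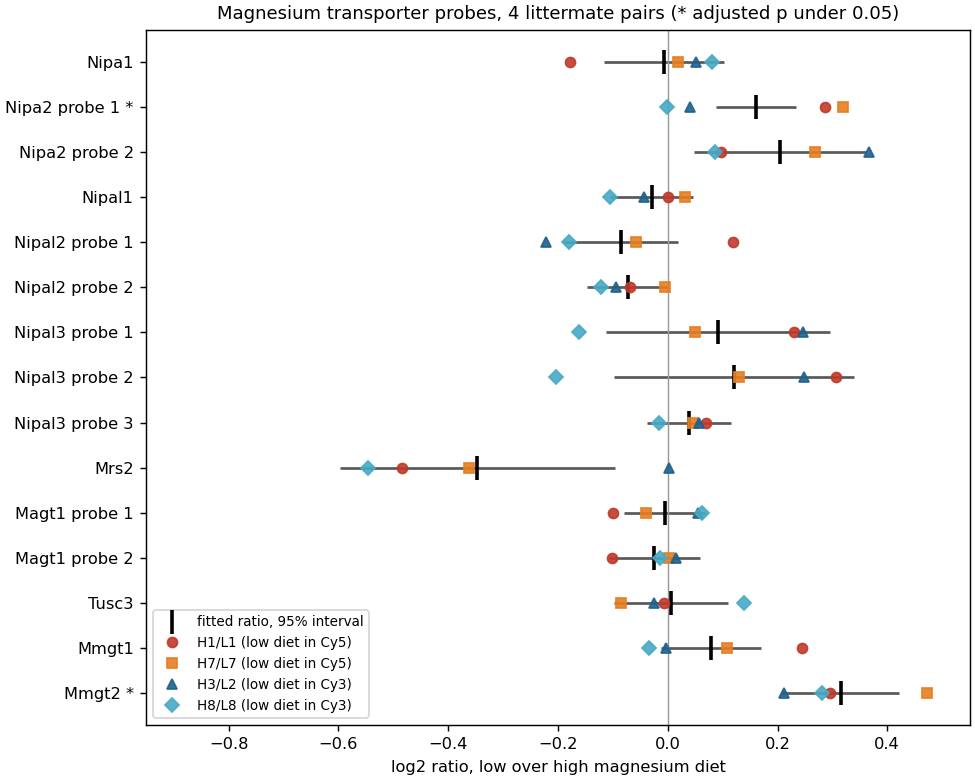
Log2 ratio of low over high magnesium diet (horizontal axis) for the 15 member probes (rows), with 1 point per littermate pair and the fitted ratio as a bar with its 95% interval. Mmgt2 lies between 0.21 and 0.47 in all 4 pairs, Mrs2 lies between -0.55 and -0.36 in 3 pairs and at 0.0024 in H3/L2, and most other probes scatter around 0.

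Mmgt2 was the member with the clearest difference. Its levels in low-diet samples were 8.34 in L1, 8.54 in L7, 8.34 in L2 and 8.47 in L8. In high-diet samples they were 8.05 in H1, 8.07 in H7, 8.13 in H3 and 8.19 in H8. Every low-diet sample was above every high-diet sample, and the groups did not overlap. This was so for 1 of 15 member probes and for 7.65% of all probes. The pair ratios were 0.29 on H1/L1, 0.47 on H7/L7, 0.21 on H3/L2 and 0.28 on H8/L8, so both dye orientations showed the same direction. The fitted ratio had a standard error of 0.041 and a 95% interval from 0.21 to 0.42, and the dye term was 0.07 (adjusted p = 0.448). The call depended on the fit. Adjusted p ranged from 0.0192 to 0.366 over 11 alternatives and was under 0.05 in 3 of them; leaving out any single pair moved it to between 0.0601 and 0.106, with log2 ratios from 0.27 to 0.36.

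Mmgt1, the paralogue that doubles as a subunit of the ER membrane complex, did not pass. Its levels were 7.98 ± 0.02 in low-diet and 7.90 ± 0.13 in high-diet samples (SD, n = 4), and the groups overlapped. The pair ratios were -0.0035 on H3/L2, -0.03 on H8/L8, 0.24 on H1/L1 and 0.11 on H7/L7, so the sign followed the dye orientation. The fitted log2 ratio was 0.08 with a 95% interval from -0.01 to 0.17 (adjusted p = 0.299). The difference between the ratios of Mmgt2 and Mmgt1 on the same array was 0.22, 0.32, 0.05 and 0.36 on H3/L2, H8/L8, H1/L1 and H7/L7. Its mean was 0.24 ± 0.14 (SD, n = 4; exact two-sided sign-flip test, p = 0.125, the smallest that 4 pairs allow). This comparison and those of Nipa2 with Nipa1 and of Tusc3 with Magt1 were chosen after the values were seen, and adjusted over these 3 the p was 0.375.

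Nipa2, which carries magnesium at the plasma membrane and early endosome, was higher on the low diet by both probes, and passed by the brighter one. The first probe read 10.16 in L1, 10.16 in L7, 9.92 in L2 and 10.01 in L8, and 9.87 in H1, 9.84 in H7, 9.88 in H3 and 10.01 in H8. Low-diet samples L1 and L7 stood above all 4 high-diet samples, but L2 and L8 lay within 0.04 of their partners, so the groups overlapped. Both clear rises were on arrays with the low-diet sample in Cy5: H1/L1 at 0.29 and H7/L7 at 0.32, where H3/L2 was at 0.04 and H8/L8 at -0.00096. The dye term was 0.14 (adjusted p = 0.153), about the size of the diet ratio, and dye and the identity of the pairs cannot be told apart here. The fitted ratio of 0.16 had a standard error of 0.028 and a 95% interval from 0.09 to 0.23. That small error comes from pairs of like orientation agreeing closely; without the dye term the adjusted p was 0.332.

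The second Nipa2 probe showed another pattern across the pairs. Its levels were 9.44 in L1, 9.63 in L7, 9.48 in L2 and 9.68 in L8, against 9.34 in H1, 9.36 in H7, 9.12 in H3 and 9.60 in H8. The low-diet sample was higher in 4 of 4 pairs, by 0.10, 0.27, 0.37 and 0.09 in the same order, although the groups overlapped through H8. The same sign in 4 of 4 pairs was found for 3 of the 15 member probes and for 24.6% of all probes. The fitted log2 ratio was 0.20 with a 95% interval from 0.05 to 0.36 (adjusted p = 0.141), and the dye term was -0.02. The 2 probes thus gave fitted ratios 0.04 apart, but the first took its size from H1/L1 and H7/L7 and the second mostly from H3/L2 and H7/L7. With the mean of both probes as the gene's value the ratio was 0.18 (adjusted p = 0.0749). For the first probe the adjusted p ranged from 0.0365 to 0.380 over 11 alternatives and was under 0.05 in 1 of them.

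**Figure D2:**
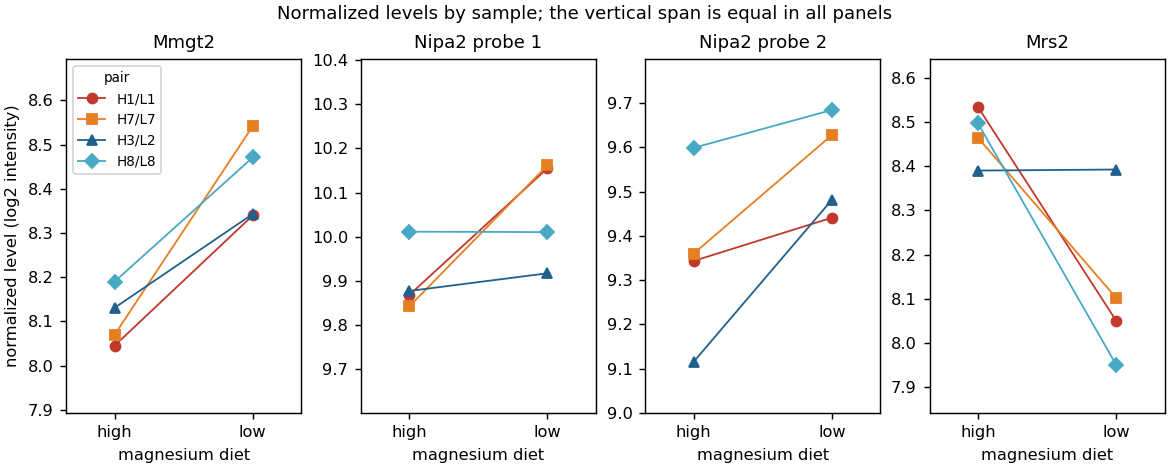
Normalized level as log2 intensity (vertical axis, same span in each panel) in the high-diet and low-diet sample of each pair, joined by a line, for Mmgt2, both Nipa2 probes and Mrs2. Mmgt2 rises along all 4 lines without overlap of the groups, the first Nipa2 probe rises clearly in H1/L1 and H7/L7 only, and Mrs2 is lower on the low diet in all pairs but H3/L2.

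Nipa1, the gene mutated in a dominant form of hereditary spastic paraplegia, lies beside Nipa2 on chromosome 7. It had levels of 8.48 ± 0.14 in low-diet and 8.48 ± 0.09 in high-diet samples (SD, n = 4). Its pair ratios were -0.18 on H1/L1, 0.02 on H7/L7, 0.05 on H3/L2 and 0.08 on H8/L8. The fitted ratio was -0.01 with a 95% interval from -0.12 to 0.10 (adjusted p = 0.957). On the same array the ratio of Nipa2 exceeded that of Nipa1 by 0.17 ± 0.26 on average (SD, n = 4; exact two-sided sign-flip test, p = 0.500), with 2 of 4 pairs above 0.

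In the RefSeq gene table the order on chromosome 7 is Tubgcp5, Cyfip1, Nipa2 and Nipa1. Cyfip1, which encodes a subunit of the WAVE actin regulatory complex, rose by 0.32 ± 0.10 (SD, n = 4; 1.25-fold; adjusted p = 0.0328), with ratios from 0.20 to 0.43 in 4 of 4 pairs. Tubgcp5, which encodes a protein of the gamma-tubulin ring complex, had a ratio of 0.32 ± 0.15 (SD, n = 4; adjusted p = 0.0624), also above 0 in 4 of 4 pairs. Of these neighbours only Cyfip1 passed, and its call did not hold without any single pair (adjusted p between 0.0763 and 0.0953) or with plain background subtraction (adjusted p = 0.0931).

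Because Nipa2 and Nipa1 are adjacent, lie on the same strand and differed in their call, the promoter windows of both are shown. They are RefSeq sequences of build GRCm38.p6, from 250 bases before to 50 bases after the annotated start. From the table of such windows, entries on a chromosome that carries none of the members were left out. An entry then remained for 5 of the 10 members. Capitals mark matches on either strand to CCAAT, to the GC box GGGCGG, to the E-box CACGTG, to the TATA box TATAAA or to TGACGT, the core of the cyclic AMP response element. The windows are chr7:55962444-55962743 for Nipa2 and chr7:56019551-56019850 for Nipa1, both on the minus strand.
Nipa2: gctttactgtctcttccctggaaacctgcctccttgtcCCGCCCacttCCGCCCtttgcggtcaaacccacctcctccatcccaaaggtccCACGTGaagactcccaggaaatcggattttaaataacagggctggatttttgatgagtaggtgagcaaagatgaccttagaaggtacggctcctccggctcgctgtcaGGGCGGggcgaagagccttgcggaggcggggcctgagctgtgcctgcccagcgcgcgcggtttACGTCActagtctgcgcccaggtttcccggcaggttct
Nipa1: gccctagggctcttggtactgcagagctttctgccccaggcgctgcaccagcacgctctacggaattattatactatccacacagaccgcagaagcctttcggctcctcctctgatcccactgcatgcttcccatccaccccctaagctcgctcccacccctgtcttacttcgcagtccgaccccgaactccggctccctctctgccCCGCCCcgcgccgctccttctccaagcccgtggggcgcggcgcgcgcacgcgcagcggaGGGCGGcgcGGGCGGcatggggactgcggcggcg

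Both windows were rich in G and C, at 59.0% for Nipa2 and 67.7% for Nipa1, against a median of 52.7% over all 32851 windows in the table. Each held 3 GC boxes, a motif found in 35.7% of all windows, and neither held CCAAT or TATAAA, which are in 37.4% and 13.6%. The Nipa2 window held 1 E-box and 1 TGACGT core, which occur in 7.15% and 7.51% of all windows, and the Nipa1 window held neither. These are letter matches only. The Magt1 window, on the minus strand of the X chromosome, held 1 E-box and 4 CCAAT boxes.

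The NIPA-like genes did not pass by any probe. Nipal3 was measured by 3 probes, with ratios of 0.25, -0.16, 0.23 and 0.05 for the brightest on H3/L2, H8/L8, H1/L1 and H7/L7. The second probe gave 0.25, -0.20, 0.31 and 0.13 and the third 0.06, -0.02, 0.07 and 0.05. All 3 probes were above 0 in 3 pairs and below 0 in H8/L8. The fitted ratios were 0.09, 0.12 and 0.04 (adjusted p between 0.506 and 0.596), and the interval of the brightest probe ran from -0.11 to 0.29. The background-subtracted signal of that probe lay between 1883 and 4827 units in the 8 samples. With plain background subtraction the ratios were 0.11, 0.14 and 0.19, so the order of the probes by size depended on the background correction.

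Nipal2 had ratios of -0.22 on H3/L2, -0.18 on H8/L8, 0.12 on H1/L1 and -0.06 on H7/L7 by its first probe. The second probe was below 0 in 4 of 4 pairs, at -0.09, -0.12, -0.07 and -0.0045 in the same order. The fitted ratios were -0.09 and -0.07 (adjusted p = 0.322 and 0.248), with intervals from -0.19 to 0.02 and from -0.15 to 0.0028. The second probe was dim, with signals of 18.8 to 46.7 units above background. Nipal1 was dim as well, with no signal over 47.0 units, and had a fitted ratio of -0.03 with an interval from -0.10 to 0.05 (adjusted p = 0.657). With plain background subtraction the second Nipal2 probe moved to -0.22 and Nipal1 to -0.01, neither past the threshold (adjusted p = 0.157 and 0.954).

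Mrs2, the mitochondrial channel, had the widest difference below 0. Its levels were 8.05 in L1, 8.10 in L7, 8.39 in L2 and 7.95 in L8, against 8.53 in H1, 8.46 in H7, 8.39 in H3 and 8.50 in H8. Low-diet samples L1, L7 and L8 were below every high-diet sample, and L2 was level with its partner H3, so the groups overlapped in that pair alone. The pair ratios were -0.48 on H1/L1, -0.36 on H7/L7, 0.0024 on H3/L2 and -0.55 on H8/L8. The fitted ratio of -0.35 (1.27-fold lower) had a standard error of 0.095 and a 95% interval from -0.60 to -0.10, which excludes 0 before adjustment over all probes but not after it (adjusted p = 0.125). Without H3/L2 the ratio was -0.48 and passed (adjusted p = 0.0428), and without H8/L8 it was -0.21 (adjusted p = 0.136). The dye term was -0.08 (adjusted p = 0.709).

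Markers of other segments also differed between the samples of a pair. The median log2 ratio of the 10 proximal tubule markers was -0.90 in H3/L2, -0.26 in H8/L8, -1.11 in H1/L1 and -0.15 in H7/L7. Over the pairs H8/L8 and H7/L7 only, a choice made after seeing the data, the mean ratio was -0.45 for Mrs2, 0.38 for Mmgt2 and 0.16 for the first Nipa2 probe, none of them tested. Over the same 2 pairs the sign turned for the first and second Nipal3 probes (-0.06 and -0.04), for Nipa1 (0.05) and for the first Magt1 probe (0.01). The intercalated cell markers had their highest median in H8/L8, at 0.49, against -0.21 to -0.01 in the other pairs. Of the 6 thick ascending limb markers, Umod (1.46) and Kcnj1 (0.66) rose and Ptger3 (-1.95) fell, where 4.88% of all genes rose and 2.95% fell. Slc12a1 (0.17), Cldn10 (0.09) and Cldn16 (0.01) did not pass. The summed level of the 6 was higher in the low-diet sample of every pair, by 0.67 to 1.37 on the log2 scale, and was mostly the signal of Umod and Kcnj1. The median ratio of the 6 was 0.13 in H3/L2, 0.46 in H8/L8, -0.22 in H1/L1 and 0.05 in H7/L7. The summed principal cell level differed by -1.23 on H3/L2, -1.27 on H8/L8, 0.46 on H1/L1 and 0.60 on H7/L7. Its sign thus followed the dye orientation. This sum was mostly the signal of Avpr2, which had 3 saturated spots. Avpr2 alone had ratios of -1.28, -1.38, 0.49 and 0.63 in the same order. The median ratio of the 6 principal cell markers was -0.16, 0.01, 0.12 and 0.01. What part these markers have in the members' ratios was not tested.

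Magt1, mutated in an X-linked immune deficiency, and its paralogue Tusc3 had ratios near 0, as Nipa1 did. Magt1 had levels of 7.91 ± 0.06 in low-diet and 7.92 ± 0.09 in high-diet samples (SD, n = 4) by its first probe, and 7.26 ± 0.06 and 7.28 ± 0.09 by its second. The fitted ratios were -0.01 and -0.02, with intervals from -0.08 to 0.07 and from -0.11 to 0.06 (adjusted p = 0.949 and 0.745). Tusc3 had levels of 8.57 ± 0.11 and 8.57 ± 0.02, pair ratios from -0.08 (H7/L7) to 0.14 (H8/L8), and a fitted ratio of 0.01 with an interval from -0.10 to 0.11 (adjusted p = 0.964). The ratio of Tusc3 exceeded that of Magt1 on the same array by 0.01 ± 0.09 on average (SD, n = 4; exact two-sided sign-flip test, p = 0.875).

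**Figure D3:**
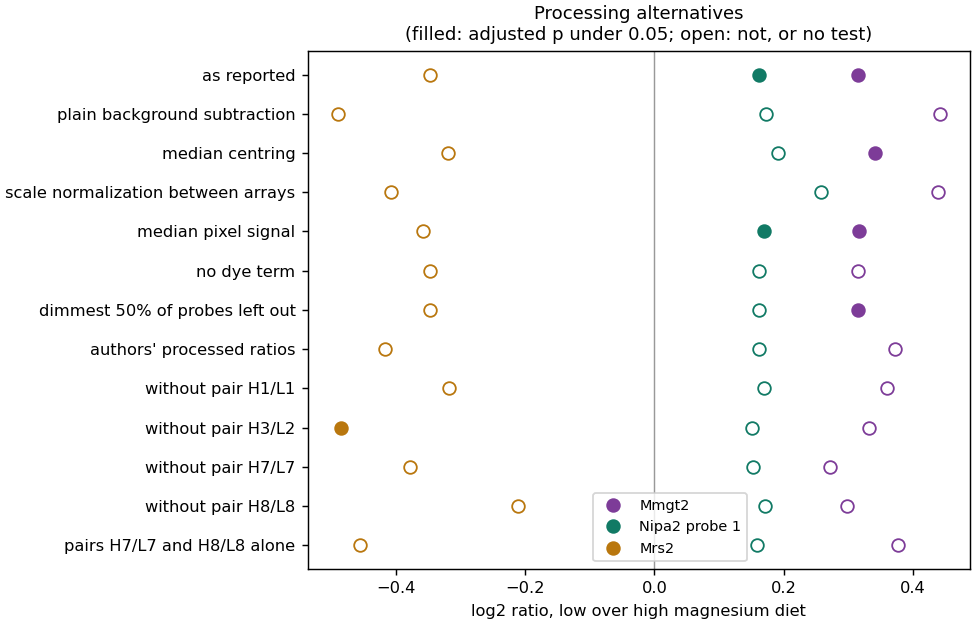
Log2 ratio of low over high diet (horizontal axis) for Mmgt2, the first Nipa2 probe and Mrs2 as reported and under each processing alternative (rows); filled points had an adjusted p under 0.05. The ratios stayed between 0.27 and 0.44 for Mmgt2, between 0.15 and 0.26 for Nipa2 and between -0.49 and -0.21 for Mrs2, while the calls came and went.

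The other genes of the compartments in which these proteins work were read from the same fit. Of 10 oligosaccharyltransferase subunits, in whose complex MAGT1 and TUSC3 serve, 1 rose and 0 fell, with a median ratio of 0.06. Of all genes, 7.82% passed, so 1 of 10 lay near the background; an unadjusted p under 0.05 in limma was found for 5 of these 10 and for 26.7% of all genes. Dad1, a small membrane subunit needed for the stability of the complex, rose by 0.35 ± 0.14 (SD, n = 4; adjusted p = 0.0170), and Stt3b, the catalytic subunit that MAGT1 and TUSC3 accompany, had a ratio of -0.13 ± 0.08 (adjusted p = 0.140). Of 8 ER membrane complex subunits other than Mmgt1, 1 rose and 0 fell, with a median of -0.07. Emc6 rose by 0.33 ± 0.07 (SD, n = 4; adjusted p = 0.0226), with ratios from 0.26 to 0.42. Neither call held without any single pair, with adjusted p from 0.0506 to 0.0681 for Dad1 and from 0.0563 to 0.0842 for Emc6.

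Among 9 mitochondrial cation and ATP-magnesium carriers, 1 fell and 0 rose, with a median of -0.03, where 2.95% of all genes fell and 4.88% rose. Slc25a23, a carrier that exchanges magnesium-bound ATP for phosphate across the inner membrane that also holds MRS2, fell by 0.33 on the log2 scale (SD 0.16, n = 4; adjusted p = 0.0292), in 4 of 4 pairs, and did not pass without any single pair (adjusted p from 0.0512 to 0.104). Slc25a25, of the same carrier group, had a ratio of 0.18 ± 0.13 (adjusted p = 0.0638), and Mcu, the calcium uniporter, one of -0.19 ± 0.10 (adjusted p = 0.108).

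Of the 21 other magnesium genes measured, 8 rose and 0 fell, with a median of 0.05. Of all genes, 4.88% rose and 2.95% fell. The ratios of these 8, each above that of any member, ran from 0.42 for Trpm7, a channel kinase, to 2.27 for Pvalb, whose promoter drives the reporter, with Trpm6, the luminal magnesium channel of this segment, at 1.01 and Slc41a3, a member of a magnesium carrier family, at 0.84. Leaving out H1/L1 ended the calls of Pvalb, Trpm6 and Slc41a3 (adjusted p = 0.0518, 0.0662 and 0.0535), leaving out H7/L7 also that of Trpm6 (adjusted p = 0.0560), and leaving out any pair that of Trpm7 (adjusted p from 0.0629 to 0.151). Some of these genes were taken up by the study or chosen here with results on these samples known, so their count is not independent evidence of a direction. Nipal4, the NIPA relative left out of the member list, had a ratio of -0.03 ± 0.04 (SD, n = 4, limma adjusted p = 0.638). Its probe was above background in 0 of 4 low-diet and 1 of 4 high-diet samples, so this ratio says little about the transcript. The range over the 10 members was -0.35 to 0.32, and 0 of the 15 member probes changed by 2-fold or more.

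**Figure D4:**
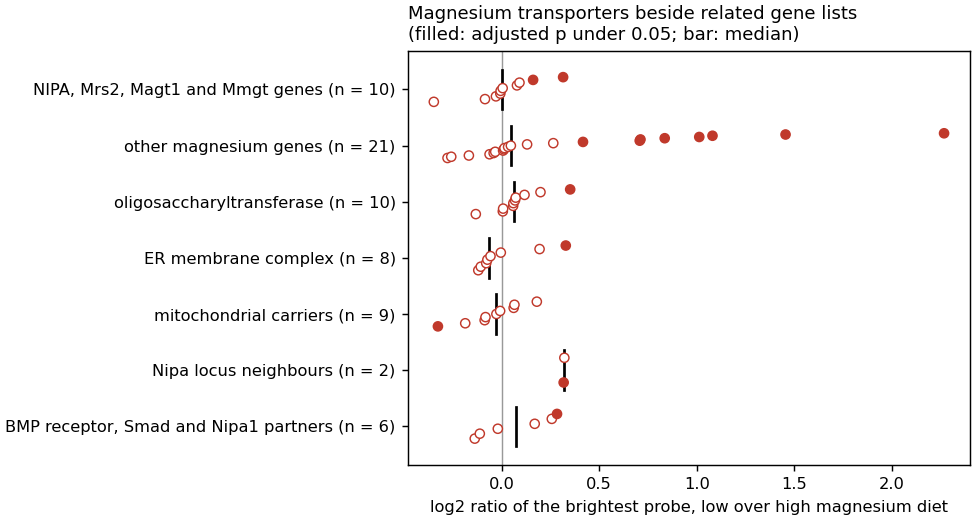
Log2 ratio of the brightest probe (horizontal axis) for the 10 magnesium transporters and for related gene lists (rows, with the number of genes measured), filled where the adjusted p was under 0.05, with the list median as a bar. The members lie between -0.35 and 0.32, and the other magnesium genes that rose reach 2.27.

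Genes with a like pattern over the 4 pairs were sought among 16083 other genes above background in all samples, by the Euclidean distance between the 4 log2 ratios. Nearest to Mmgt2 were Snx5 at a distance of 0.04, Cyp26c1 at 0.08 and Insig2 at 0.10. Nearest to the first Nipa2 probe were Cd44, Ajap1 and Heatr5a, each at 0.04. Within a distance of 0.25 lay 195 genes for Mmgt2 and 667 for Nipa2.

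In the dye term, 0 of the 15 member probes passed in limma and 3 had an unadjusted p under 0.05, against 2 and 16.8% of all 39429 probes. The 3 were the first probes of Nipa2 and Nipal2 and the probe of Mmgt1, whose dye terms were 0.14, 0.12 and 0.10. Few adjusted dye calls do not mean that orientation left no trace. Over all probes, the ratios of pairs with the same orientation correlated at a Pearson r of 0.535 and 0.629. Pairs of unlike orientation correlated at 0.064 to 0.32. In the authors' deposited table, made high over low diet, the log2 ratio was -0.37 for Mmgt2, -0.16 and -0.20 for the Nipa2 probes and 0.42 for Mrs2, so each ran the same way as here once turned. All 15 member probes had a p-value of 1 in the authors' deposited table, as did 93.9% of all probes there; 287 probes of that table, none a member, were under 0.05.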

How the data were processed

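The deposited scans give intensities per spot, on a linear scale and without background subtraction, per the file headers. Cy3 or Cy5 was coupled to amplified cRNA, per the labels. Channel 1 was taken as Cy5, as the labels list it. In the deposited value table, the authors gave each spot 1 log2 ratio per array. Set against the scans, these are channel 1 over channel 2 (Pearson r of 0.808 to 0.848 over the brighter 50% of probes), and how the authors normalized them stays unknown. Their medians were -0.00377, 0.00466, 0.00408 and -0.00346 on H3/L2, H8/L8, H1/L1 and H7/L7. The authors' deposited maanova table gives, per the file headers, 1 log2 mean and 1 p-value for every probe; no source used here says if it was adjusted.

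Background was corrected here by normexp (offset 50) on mean pixel signals, and ratios were normalized by loess within each array, with the 5791 control spots at weight 0. limma 3.58.1 in R 4.3.3 fitted a diet term, signed as low over high, and a dye intercept over 39429 probes, leaving 2 residual and 2.68 prior degrees of freedom, and p-values were adjusted by the Benjamini-Hochberg method at 0.05. The SD printed is over the 4 turned ratios and includes any dye effect; a standard error is the fit's. Levels per sample were taken after quantile normalization of mean brightness between arrays. A channel was above background where signal minus background was over the 99th percentile of a repeated dim control (604 spots, chosen after seeing the scans), and saturated at a median of 65000. Symbols came from the platform annotation (32431 probes with 1 symbol, 6998 with none), with 2622 updated through RefSeq synonyms; the members needed no update. Probe sequences were not used here, so cross-hybridisation between paralogues could not be looked at. The fit was tested on simulated data with independent normal noise for each probe and array. That test does not cover structure shared across the probes of an array.

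The members and gene lists were chosen with earlier results of these data known. Every member was named by every probe; of each list, genes past the threshold were named, at most 4, and beside them some that did not pass, chosen after their values were seen. Some genes of the lists are not reported here. The alternatives were plain background subtraction, median centring, scaling between arrays, the median pixel signal, no dye term, a filter on dim probes, the authors' processed ratios, the mean of a gene's probes and leaving out each pair.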

Additional observations from a re-analysis of the deposited data

How the results depend on the processing

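Against 2296 probes and 2 member probes past the threshold, plain background subtraction gave 279 and 0, median centring 2401 and 1, scaling between arrays 0 and 0 (in limma, with 6245 probes and 2 member probes at an unadjusted p under 0.05), no dye term 824 and 0, the dimmest 50% left out 2604 and 1, the authors' processed ratios 3232 and 0, and leaving out a pair 83 to 863 and 0 to 1. Higher calls made up 59.7% of all calls as reported, 73.1% with plain subtraction and 69.3% with no dye term. Averaging each gene's probes, 1 member gene passed in place of 2. Of 13 related genes past the threshold, 5 passed with plain subtraction, 0 with scaling, and 1 to 5 without a pair. The dye term passed for 12 of the 15 member probes under median centring, which does not adjust for brightness as loess does. The matching share over all probes was not counted, so the 12 cannot be read as a trait of the members. The sign of ratios near 0 turned: Nipa1 to 0.022 with median centring and 0.0049 with scaling, Nipal1 to 0.011 and Tusc3 to -0.022 with the authors' processed ratios, Tusc3 to -0.030 with plain subtraction and -0.035 with scaling, and the first Magt1 probe to 0.019 with median centring. Leaving out a pair gave -0.056 to 0.043 for Nipa1, -0.010 to 0.19 for the first Nipal3 probe, -0.020 to 0.0096 and -0.050 to 0.0014 for the Magt1 probes and -0.036 to 0.046 for Tusc3. The causes were not tested. No ratio of Mmgt2, Nipa2, Mrs2, Mmgt1 or Nipal2 changed sign in any alternative. The dim filter removed the Nipal1 probe, the second Nipal2 probe and the third Nipal3 probe, whose signals were close to background.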

Other observations

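NIPA1 binds the type II receptor for bone morphogenetic proteins and promotes its uptake into endosomes, so the receptor and Smad genes were read beside it. Of 6 genes, 1 rose and 0 fell, with a median log2 ratio of 0.08 against 7.82% of all genes called. An unadjusted p under 0.05 in limma was found for 4 of them and for 26.7% of all genes. Smad5, a signal transducer of these receptors, rose by 0.28 ± 0.03 (SD, n = 4; adjusted p = 0.0203), with ratios from 0.24 to 0.32 in 4 of 4 pairs, but did not pass without any single pair (adjusted p from 0.0609 to 0.0787). Smad1 had a ratio of 0.26 ± 0.16 and Bmpr1a, a type I receptor, one of 0.17 ± 0.10, both above 0 in 4 of 4 pairs but past no threshold (adjusted p = 0.123 for each). Bmpr2, the type II receptor, had a ratio of -0.14 ± 0.07 (SD, n = 4; adjusted p = 0.0646) and was below 0 in 4 of 4 pairs. Atl1 and Spast, which encode the paraplegia proteins atlastin and spastin, had ratios of -0.02 and -0.11.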
